A study of Rattus norvegicus with 2 samples.

Results

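Syndecans and glypicans are the main families of heparan sulfate proteoglycans on the cell surface. Syndecans span the membrane once and end in a short cytoplasmic tail, whereas glypicans are held in the outer leaflet by a glycosylphosphatidylinositol (GPI) anchor. Both kinds of core protein are made at the endoplasmic reticulum (ER) and receive their heparan sulfate chains in the Golgi, and the chains bind growth factors, guidance cues and matrix proteins. In the nervous system they are known for roles in axon growth, guidance and synapse formation.

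The 4 syndecan genes (Sdc1 to Sdc4) and 6 glypican genes (Gpc1 to Gpc6) were found by name among the 25628 genes of the deposited table, and all 10 had a row. The family was selected on measured values: the ratios of Sdc3 and Sdc4 between the libraries described here were known when it was drawn up. All ratios below are therefore descriptions, with no test.

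The assay was RIP-seq, the sequencing of RNA recovered together with a protein. Primary cortical neurons of the rat carried either P180-GFPbio, the ER-bound ribosome receptor P180 fused to GFP with an AviTag that can carry biotin, or GFPbio, the same tag without P180, and streptavidin beads collected the tagged protein with its RNA. P180 was thus an expressed fusion protein, the pull-down covered whole cultures, and the sources used here do not give the days in culture or how the constructs were expressed in these cells. 1 library of each condition was analysed here (P180-GFPbio and GFPbio), so no difference below has a replicate check and each compares these libraries, not the conditions. The table's columns named for a second library of each condition match no sample description used here and were not used.

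The P180-GFPbio library held 6298343 counts over 13407 genes and the GFPbio library 8428358 counts over 9345 genes. The gene of the bait, Rrbp1, had a level of 403 CPM (counts scaled to 1000000 in each library) in the P180-GFPbio library and 158 CPM in the GFPbio library, a ratio of 2.66 (2.49 to 2.85). The row of the tag held 1.02% of the counts in the P180-GFPbio library and 2.25% in the GFPbio library, and mitochondrially encoded genes held 7.31% in the P180-GFPbio library and 16.6% in the GFPbio library. With total-count scaling that leaves these rows out, the log2 ratios of all 10 members stayed above 0, with Gpc1 at 0.32, Gpc2 at 0.35 and Gpc4 at 1.80, and the 2-fold call of Sdc1 was lost. All 10 markers of neurons had counts in both libraries, and their summed level was 6645 CPM in the P180-GFPbio library and 6579 CPM in the GFPbio library. Reads came from mRNA 3' ends, so levels of different genes were set side by side without dividing by length. CPM are relative to each library's total, and ratios are P180-GFPbio over GFPbio after scaling by median-of-ratios size factors. They were computed for the 11468 genes with at least 10 counts in both libraries together. Brackets hold exact 95% intervals, which cover counting error alone and take each count as a separate molecule. Reads copied by PCR are not separate molecules, so the intervals are too narrow where such copies were counted. Where a library had 0 counts of a gene, 3 counts were put in their place. This floor was 0.476 CPM in the P180-GFPbio library and 0.356 CPM in the GFPbio library. The ratio so set is called a bound below, but its counting limit can lie closer to an equal level.

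All 10 members passed the minimum of 10 counts. In the P180-GFPbio library 8 of the 10 stood higher by 2-fold or more, and 0 stood lower by as much. Of all 11468 genes, 40.6% were called higher by that measure and 19.9% lower. Since the family was chosen with this contrast known, nothing is read from the difference between these shares. The members held 5400 counts (857 CPM) in the P180-GFPbio library and 3272 counts (388 CPM) in the GFPbio library, a scaled ratio of 2.31 (2.21 to 2.41). Adding 1 scaled count on each side, the median of their log2 ratios was 3.01, or 2.82 with members at 0 set to their bound, whereas the medians over all 11468 genes were 0.45 by either measure. The members' median, with 1 scaled count added, was 1.69 over those with at least 50 counts and 1.28 over those with counts in both libraries. Over all genes passing the same filters, with genes at 0 set to their bound, the medians were 0.14 and 0.0, the latter set by the scaling. In RNA from whole cultures, more cells of a type, more of an mRNA per cell and more of it held by the bait cannot be told apart.

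**Figure D1:**
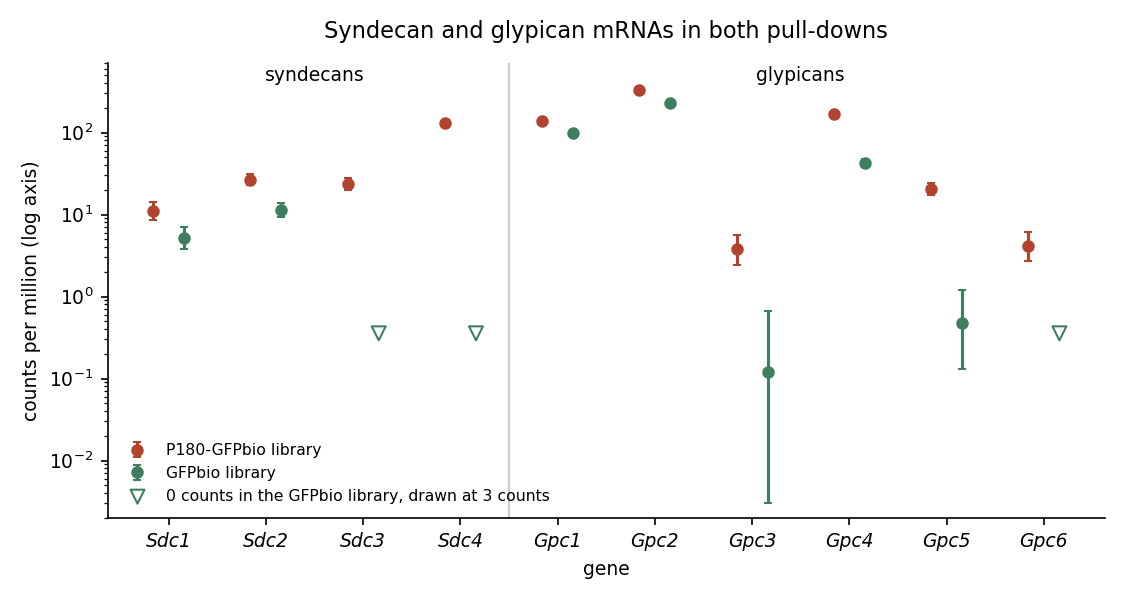
Level in CPM (log axis) of each syndecan and glypican mRNA in the P180-GFPbio library (red) and the GFPbio library (green), 1 library each, with exact 95% Poisson intervals; open triangles mark 0 counts, drawn at the level of 3 counts. Sdc3, Sdc4 and Gpc6 have no GFPbio count, and every member lies higher in the P180-GFPbio library.

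Sdc4 (ENSRNOG00000014297), a widely expressed syndecan that takes part in cell-matrix adhesion, had 822 counts in the P180-GFPbio library and 0 in the GFPbio library. This was 131 CPM (122 to 140) in the P180-GFPbio library. In the GFPbio library the floor was 0.356 CPM and the upper counting limit 0.438 CPM. Against that floor Sdc4 was 383-fold higher in the P180-GFPbio library, with a lower counting limit of 311. Its ratio had rank 5 among the 11468 genes with genes at 0 placed at their bound. Sdc3 (ENSRNOG00000011927), the syndecan typical of neurons and also called N-syndecan, had 148 counts (23.5 CPM) in the P180-GFPbio library and 0 in the GFPbio library. Against the floor Sdc3 was 68.9-fold higher, with a lower counting limit of 55.4.

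The other syndecans were found in both libraries. Sdc2 (ENSRNOG00000004936), which in neurons is known from dendritic spines, had 168 counts (26.7 CPM) in the P180-GFPbio library and 96 counts (11.4 CPM) in the GFPbio library. Its ratio was 2.44 (1.89 to 3.18). Sdc1 (ENSRNOG00000059947), best known from epithelial and plasma cells, had 70 counts (11.1 CPM) in the P180-GFPbio library and 44 counts (5.22 CPM) in the GFPbio library. Its ratio was 2.22 (1.50 to 3.32), and it was 1.88, under 2-fold, when libraries were scaled by total counts without the tag row and mitochondrial genes. The intervals of both genes include 2, so their place above that threshold was not settled at these counts. The ratios of Sdc1 and Sdc2 did not differ from each other beyond counting error: the ratio of Sdc2 over that of Sdc1, in which the scaling cancels, was 1.10 (0.680 to 1.77).

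The makeup of the syndecan counts therefore differed between the libraries. Sdc4 gave 68.0% (65.3 to 70.7) of the 1208 syndecan counts in the P180-GFPbio library. In the GFPbio library it gave 0 of 140, with an upper counting limit of 2.60%. Sdc2 gave 13.9% in the P180-GFPbio library and 68.6% in the GFPbio library, and Sdc1 gave 5.79% in the P180-GFPbio library and 31.4% in the GFPbio library. Summed over the 4 genes the scaled ratio was 12.1 (10.1 to 14.5), and over Sdc1 and Sdc2 alone it was 2.38 (1.92 to 2.95).

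The glypicans comprised a pair with ratios under 2-fold, Gpc2 and Gpc1, and 4 genes with higher ratios. Gpc2 (ENSRNOG00000001367), cerebroglycan, known from the developing nervous system, was the member with the most counts in both libraries: 2073 (329 CPM) in the P180-GFPbio library and 1932 (229 CPM) in the GFPbio library. Its ratio was 1.50 (1.41 to 1.60). Gpc1 (ENSRNOG00000049437), a glypican that neurons express widely, had 881 counts (140 CPM) in the P180-GFPbio library and 834 counts (98.95 CPM) in the GFPbio library, and a ratio of 1.48 (1.34 to 1.62). The ratios of Gpc2 and Gpc1 did not differ beyond counting error, with a quotient of 1.02 (0.906 to 1.14).

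Gpc4 (ENSRNOG00000002413), a glypican that astrocytes release in rodents and that promotes synapses carrying AMPA receptors, had 1058 counts (168 CPM) in the P180-GFPbio library and 361 counts (42.8 CPM) in the GFPbio library. Its ratio was 4.09 (3.63 to 4.63), which was 2.77 times (2.38 to 3.24) that of Gpc1 and 2.73 times (2.38 to 3.13) that of Gpc2. These quotients do not depend on the scaling, and their intervals lie above 1.

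Gpc5 (ENSRNOG00000071105), a glypican of astrocytes, had 130 counts (20.6 CPM) in the P180-GFPbio library and 4 counts (0.475 CPM) in the GFPbio library. Its ratio of 45.4 (17.3 to 169) was 11.1 times that of Gpc4 (4.18 to 41.6). Gpc6 (ENSRNOG00000046660), closely related to Gpc4 and also released by astrocytes, had 26 counts in the P180-GFPbio library and 0 in the GFPbio library. Against the floor Gpc6 was 12.1-fold higher, with a lower counting limit of 9.16. Gpc3 (ENSRNOG00000060179), a regulator of body growth whose loss causes an overgrowth syndrome in humans, had 24 counts in the P180-GFPbio library and 1 in the GFPbio library. With so few counts its ratio of 33.5 had a wide interval (5.47 to 1379).

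**Figure D2:**
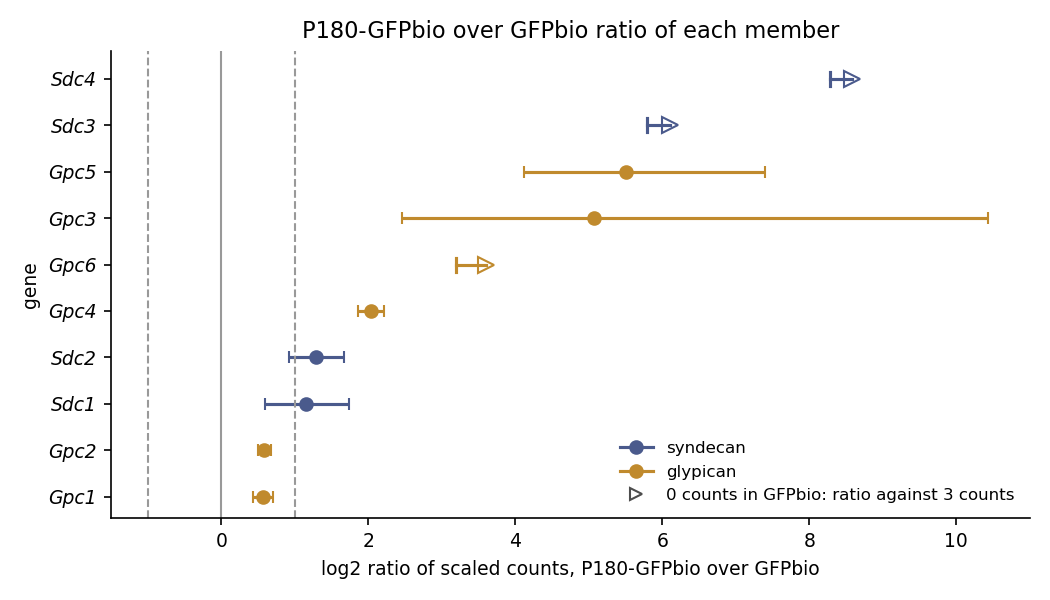
Log2 ratio of scaled counts, P180-GFPbio over GFPbio, for each syndecan (blue) and glypican (ochre); bars are exact 95% counting intervals, open triangles are ratios against 3 counts for genes at 0 in the GFPbio library with the lower counting limit as a tick, and dashed lines mark 2-fold. Gpc1 (0.56) and Gpc2 (0.58) lie under 2-fold, the bounds of Sdc3 and Sdc4 are 6.11 and 8.58, and the intervals of Gpc5 and Gpc3 reach past the bound of Sdc3.

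By level, the P180-GFPbio library ran from Gpc2 over Gpc4 and Gpc1 to Sdc4, then Sdc2, Sdc3, Gpc5, Sdc1, Gpc6 and Gpc3. In this order the CPM intervals of Gpc1 (131 to 149) and Sdc4 (122 to 140) overlapped, as did those of Sdc2, Sdc3 and Gpc5 and those of Gpc6 and Gpc3. In the GFPbio library the order was Gpc2, Gpc1, Gpc4, Sdc2, Sdc1, Gpc5 and Gpc3, with Sdc3, Sdc4 and Gpc6 at 0. There the intervals of the first 5 genes did not overlap, and Gpc5 (0.129 to 1.22) and Gpc3 (0.00300 to 0.661) could not be told apart from each other. Gpc4 thus stood above Gpc1 in the P180-GFPbio library and below it in the GFPbio library. Gpc4 gave 25.2% (23.9 to 26.6) of the 4192 glypican counts in the P180-GFPbio library and 11.5% (10.4 to 12.7) of the 3132 in the GFPbio library. Gpc2 gave 49.5% in the P180-GFPbio library and 61.7% in the GFPbio library. Over all 6 glypicans the scaled ratio was 1.87 (1.78 to 1.96).

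3 of the 10 members (Sdc3, Sdc4 and Gpc6) had no count in the GFPbio library, against 20.4% of all genes. Of the 11468 genes tested, 2343 had no count in the GFPbio library and 120 had none in the P180-GFPbio library. The share of genes at 0 in the GFPbio library was lower at higher P180-GFPbio counts. Of the 3024 genes with at least 10 and under 50 P180-GFPbio counts, the range of Gpc6 and Gpc3, 53.3% had no GFPbio count. Of the 1913 genes with at least 100 and under 200, the range of Sdc2, Sdc3 and Gpc5, 11.2% had none. Of the 1079 genes with at least 500 and under 1000, the range of Sdc4 and Gpc1, 3 had none (0.278%): Sdc4, Gria4 and Slc12a9. The ratios of Sdc3 and Sdc4 were known when the family was drawn up, so nothing is read from setting their 0 counts beside these shares. Of the 7 members with counts in both libraries 5 were at least 2-fold higher, beside 25.6% of the 9005 genes with counts in both.

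**Figure D3:**
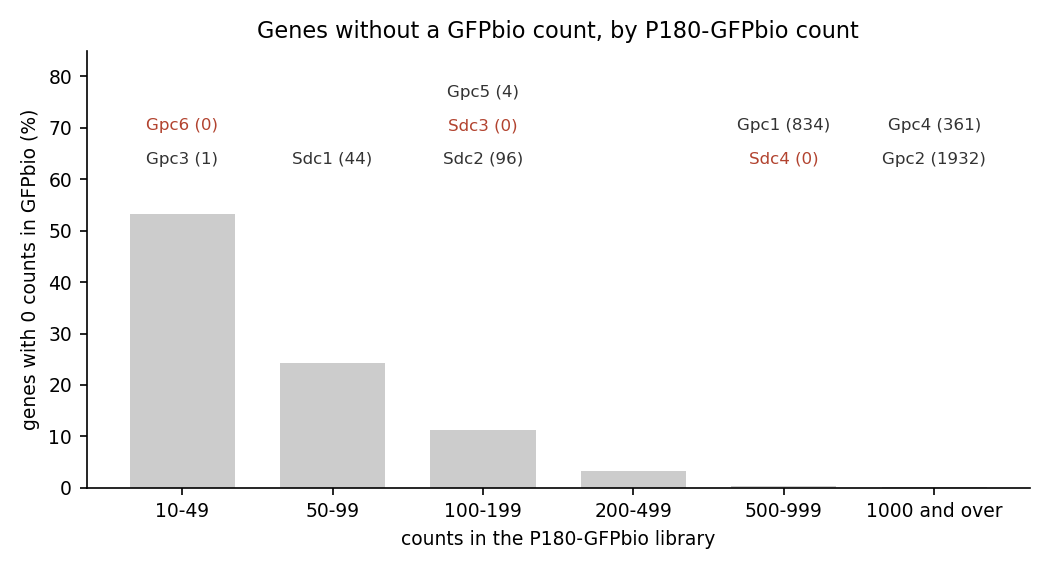
Share of genes without a count in the GFPbio library (y axis, %) by count in the P180-GFPbio library; gene names stand over their own range with the GFPbio count in brackets, in red where it is 0, and their height has no meaning. Sdc4 sits in a range where 0.278% of genes had no GFPbio count, Sdc3 in one with 11.2% and Gpc6 in one with 53.3%. The ratios of Sdc3 and Sdc4 were known when the family was drawn up, so their places are descriptions.

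The genes most like Sdc4 in both libraries, by the distance of log2(scaled count + 1), were Gria4, an AMPA receptor subunit (740 counts in the P180-GFPbio library and 0 in the GFPbio library, distance 0.15), Yars1, a tyrosyl-tRNA synthetase (1011 in the P180-GFPbio library and 0 in the GFPbio library, distance 0.30), and the cotransporter family member Slc12a9 (552 in the P180-GFPbio library and 0 in the GFPbio library, distance 0.57). The genes most like Gpc2 were Fdft1, squalene synthase (2087 counts in the P180-GFPbio library and 2001 in the GFPbio library), Nckap1, a subunit of the WAVE actin regulator (2197 in the P180-GFPbio library and 1946 in the GFPbio library), and the intramembrane protease Sppl3 (2000 in the P180-GFPbio library and 2026 in the GFPbio library), all within a distance of 0.09. With 1 library of each condition, likeness rests on 2 values a gene.

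Markers of other cell types than neurons also differed between the libraries. Their counts of calls stand beside 40.6% higher and 19.9% lower over all genes. For astrocytes, 8 of 10 markers were higher by 2-fold or more and 0 lower, and their summed level was 4679 CPM in the P180-GFPbio library and 1263 CPM in the GFPbio library. Aldh1l1 and Slc1a2, both defining for astrocytes, had 276 and 277 counts in the P180-GFPbio library and 0 in the GFPbio library. Oligodendrocyte lineage markers summed to 619 CPM in the P180-GFPbio library and 295 CPM in the GFPbio library (4 of 7 tested higher, 1 lower, Mog at 0 in both), and markers of dividing cells to 191 CPM in the P180-GFPbio library and 101 CPM in the GFPbio library (5 of 8 higher, 1 lower). Microglia markers and endothelial and mural markers each summed to 13.7 CPM in the P180-GFPbio library and 0 in the GFPbio library, with Itgam, P2ry12, Tyrobp, Cdh5, Kdr, Flt1 and Acta2 at 0 in both. Of the tested markers, 3 of 3 for microglia and 2 of 2 for endothelial and mural cells were higher. Fibroblast and meningeal markers summed to 12.7 CPM in the P180-GFPbio library and 57.3 CPM in the GFPbio library, where all 483 counts were of Col3a1. Of 4 tested, 3 were higher and 1, Col3a1, lower. Pdgfrb stands in this list and in that of endothelial and mural markers. Of 10 neuronal markers 2 were higher and 1 lower. The part of these cells in the ratios of Sdc4, Gpc4, Gpc5 and Gpc6 was not tested.

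The enzymes that build heparan sulfate were spread to both sides of an equal level. Of 27 enzymes of the linker, the chain and its modification, 21 had at least 10 counts, of which 6 were called higher (2-fold or more) with P180-GFPbio, 5 lower and 10 neither, beside 40.6% higher and 19.9% lower over all genes. This balance depended on the scaling, with 4 higher and 5 lower under total counts, and 3 higher and 7 lower under total counts without the tag row and mitochondrial genes. Of all genes, the former scaling called 39.7% higher and 21.0% lower, and the latter 37.4% higher and 24.0% lower. Their median log2 ratio was -0.15, beside 0.45 over all genes, and their summed scaled ratio 0.773 (0.749 to 0.797). That sum gives most weight to the genes with most counts, so it does not describe the list gene by gene. These were Hs6st1 (1104 in the P180-GFPbio library, 3909 in the GFPbio library) and Extl3 (943 in the P180-GFPbio library, 2383 in the GFPbio library). The enzymes of the list are Golgi or ER membrane proteins for the most part, and are themselves made at the ER. The list was written with earlier results of these data known, and no difference from the core proteins was tested.

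Among the linker enzymes, which start the chain, Xylt1 and Xylt2 are alternative xylosyltransferases that add the first sugar to the core protein. Xylt1 had 85 counts in the P180-GFPbio library and 0 in the GFPbio library. Against the floor it was 39.6-fold higher, with a lower counting limit of 31.5. Xylt2 had 16 counts in the P180-GFPbio library and 69 in the GFPbio library, a ratio of 0.324 (0.175 to 0.564). B3gat3, which adds the last sugar of the linker, had a ratio of 2.07 (1.63 to 2.64), and of 1.98, under the 2-fold threshold, with total-count scaling. The others stayed under 2-fold, from 0.536 for B4galt7 to 1.77 for B3galt6.

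Ext1 and Ext2 form the complex that extends the chain. Ext2 had 662 counts in the P180-GFPbio library and 461 in the GFPbio library, whereas Ext1 had 518 counts in the P180-GFPbio library and 1155 in the GFPbio library. The ratio of Ext2, 2.01 (1.78 to 2.26), was 3.20 times (2.73 to 3.76) that of Ext1, 0.627 (0.564 to 0.696). The call of Ext2 at 2-fold was lost with TMM scaling (1.98), but the quotient does not depend on the scaling.

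Of the 10 tested enzymes that modify the chain, 3 were higher and 4 lower, beside 40.6% higher and 19.9% lower over all genes. The epimerase Glce (2.87, 2.35 to 3.51), the 2-O-sulfotransferase Hs2st1 (2.32, 2.09 to 2.58) and the 6-O-sulfotransferase Hs6st2, with 61 counts in the P180-GFPbio library and 0 in the GFPbio library, were higher. Hs2st1 was at 1.97 when scaled by total counts without the tag row and mitochondrial genes. The related 6-O-sulfotransferase Hs6st1 was lower, with 1104 counts in the P180-GFPbio library and 3909 in the GFPbio library (0.395, 0.369 to 0.422). The N-deacetylase/N-sulfotransferase Ndst3 had 0 counts in the P180-GFPbio library and 136 in the GFPbio library. It was 32.4-fold lower with the floor in place, and the upper counting limit of its ratio was 0.0384. Ndst2 (0.267) and Hs3st5 (0.426) were lower too. Sulf2, a sulfatase that trims finished chains outside the cell, had 2232 counts in the P180-GFPbio library and 2043 in the GFPbio library, a ratio of 1.53 (1.44 to 1.62).

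**Figure D4:**
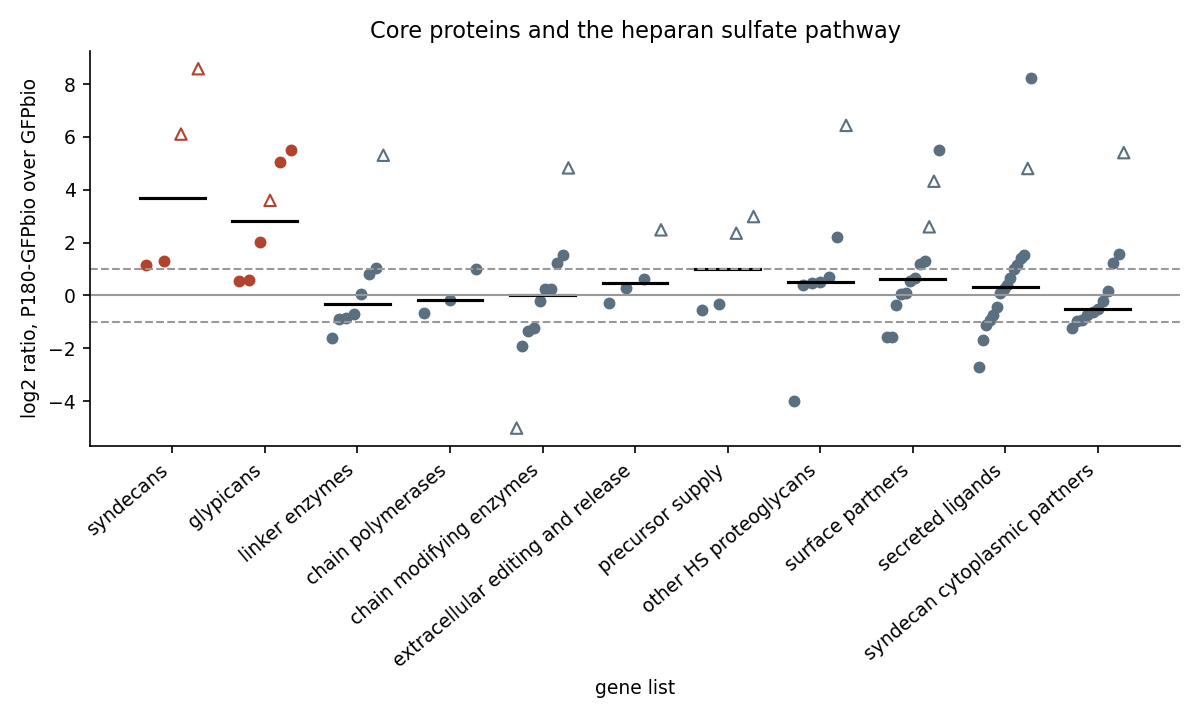
Log2 ratio of scaled counts, P180-GFPbio over GFPbio, for each gene with at least 10 counts, by list (HS, heparan sulfate); red marks the syndecans and glypicans, open triangles are genes at 0 in 1 library set to 3 counts there, black lines are list medians and dashed lines mark 2-fold. The 10 core proteins all lie above 0, and the linker, polymerase and modifying enzymes spread to both sides of it.

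Other proteins that carry heparan sulfate varied among themselves. Of 7 tested, 2 were called higher, 1 lower and 4 neither, with a median log2 ratio of 0.50. Over all genes 40.6% were higher and 19.9% lower, with a median of 0.45, so the count shows nothing particular to the list. The matrix proteoglycan agrin (Agrn) had a ratio of 1.63 (1.52 to 1.76), and the presynaptic neurexin Nrxn2 had a ratio of 1.30. Nrxn3 had 937 counts in the P180-GFPbio library and 280 in the GFPbio library (4.68, 4.09 to 5.36). Cd44, which carries heparan sulfate in some splice forms, had 186 counts in the P180-GFPbio library and 0 in the GFPbio library. Col18a1, a collagen of basement membranes, had 8 counts in the P180-GFPbio library and 179 in the GFPbio library, 0.0624 (0.0265 to 0.126).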

How the data were processed

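RNA bound to P180-GFPbio or GFPbio in rat primary cortical neurons was analysed from 1 library each. The authors deposited raw counts per gene: adapted CEL-Seq2 libraries were demultiplexed with je-suite, read 2 was aligned to mRatBN7 and counted with STARsolo 2.7.10a, leaving out reads with several equally good positions. The sources used here do not state the annotation release or whether molecular identifiers were collapsed. 2 further columns of counts, named for a second library of each condition, match no sample as given here and were not used, so nothing below says whether the ratios or the GFPbio counts of 0 recur in them. The authors' test with DESeq2 was not repeated, as it needs replicates.

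Of 25628 genes (92 spike-in rows left out), 11468 reached the minimum of 10 counts summed over the libraries. Size factors were 0.846 for P180-GFPbio and 1.18 for GFPbio. Ratio intervals are Clopper-Pearson intervals of the P180-GFPbio share of a gene's counts, levels have exact Poisson intervals, and quotients of ratios have conditional exact intervals, all at 95%. Steps were tested on simulated data. The members and lists were chosen with earlier results of these data known. Named genes were the members, the bait, list genes and the 3 genes nearest to the syndecan and glypican with most counts. Alternatives were TMM, total-count and 2 further scalings (1 of them, total counts without the tag row and mitochondrial genes, added after seeing the data), other count filters, 1 count in place of the floor of 3, and 5 added scaled counts. Planned protein features were not computed, since protein sequences were not used here. Python 3.11.15, scipy 1.17.1, R 4.3.3 and edgeR 4.0.16 (TMM factors only) were used.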

Additional observations from a re-analysis of the deposited data

How the results depend on the processing

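Some of the 75 recomputed log2 ratios of the 10 members could not move. Requiring counts in both libraries leaves the size factors as they were. A floor of 1 count can only raise the members at 0, whose intervals have no upper limit, and leaves the others unchanged. None of the 75 was below 0, and 72 lay inside the counting interval of the value reported. The exceptions were Gpc1 (0.32), Gpc2 (0.35) and Gpc4 (1.80) when scaled by total counts without the tag row and mitochondrial genes, a scaling that moved the median over all genes by -0.24. Under it 7 of the 10 members were at least 2-fold higher, Sdc1 (0.91) being the one lost, and 3 assembly enzymes were higher and 7 lower. Of all genes it called 37.4% higher and 24.0% lower. Requiring counts in both libraries also leaves out Sdc3, Sdc4 and Gpc6 by construction. Then 5 members were at least 2-fold higher and 0 were without a GFPbio count. The members' median log2 ratio was 1.28 in place of 3.01. Of the 9005 genes left, 2309 (25.6%) were higher, against 4652 of 11468 (40.6%) without that requirement. With at least 50 counts 6 members were higher, since Gpc3 and Gpc6 are not tested, with a median of 1.69. Of the 9310 genes with at least 50 counts, 2836 (30.5%) were higher. Of 144 recomputed counts of the pathway lists, 19 differed by more than 1.5 times. No paired analysis was possible because 1 library of each condition was matched to a sample and analysed here, and for the same reason no library could be left out. Small counts limit the ratios of Sdc3, Sdc4, Gpc3, Gpc5 and Gpc6, which have 0 to 4 counts in the GFPbio library. That library had the larger total, 8428358 counts against 6298343, but fewer genes with counts, 9345 against 13407.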

Other observations

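Genes of proteins that bind heparan sulfate proteoglycans, listed with earlier results of these data known, were spread to both sides of an equal level. Of 16 tested secreted ligands and related factors, 6 were called higher (2-fold or more) with P180-GFPbio, 3 lower and 7 neither, with a median log2 ratio of 0.32. Over all genes 40.6% were higher and 19.9% lower, close to these shares, so the count shows nothing particular to the list. It was 5 higher under TMM and under total-count scaling, and 4 higher and 4 lower under total counts without the tag row and mitochondrial genes. Over all genes, TMM called 40.3% higher and total counts 39.7%. The last scaling called 37.4% higher and 24.0% lower. Slit1, Slit2 and Slit3, guidance cues that bind heparan sulfate, were all higher: Slit1 had 582 counts in the P180-GFPbio library and 281 in the GFPbio library (2.89, 2.51 to 3.35), Slit2 had 123 in the P180-GFPbio library and 65 in the GFPbio library, and Slit3 had 60 in the P180-GFPbio library and 0 in the GFPbio library. The matrix protein tenascin C (Tnc) had 426 counts in the P180-GFPbio library and 2 in the GFPbio library. Pleiotrophin (Ptn), a ligand of Sdc3, and midkine (Mdk) had many counts in both libraries and ratios of 1.08 (1.05 to 1.11) and 1.18 (1.13 to 1.24). Fgf13, which despite its name stays inside the cell, was lower (0.307), as were the growth factors Hbegf (0.464) and Bmp7 (0.154).

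Of 12 tested surface receptors and related genes, 5 were higher, 2 lower and 5 neither, with a median log2 ratio of 0.62, also close to the shares of 40.6% and 19.9% over all genes. Gpr158, a postsynaptic partner of Gpc4 in mice, had 105 counts in the P180-GFPbio library and 64 in the GFPbio library (2.29, 1.66 to 3.18), and its ratio was 1.94, under 2-fold, without the tag row and mitochondrial genes. Ptprs, a receptor phosphatase that binds heparan sulfate, had 4081 counts in the P180-GFPbio library and 5413 in the GFPbio library, a ratio of 1.05 (1.01 to 1.10).

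Of 11 tested partners of the syndecan tail, cytosolic proteins for the most part, 3 were higher, 1 lower and 7 neither, with a median log2 ratio of -0.49, beside 0.45, 40.6% higher and 19.9% lower over all genes. Total-count scaling gave 3 higher and 2 lower, beside 39.7% higher and 21.0% lower over all genes. Total counts without the tag row and mitochondrial genes gave 2 higher and 3 lower, beside 37.4% and 24.0% over all genes. Under it Cask (1.97) was under 2-fold, and Ezr (0.446) and Actn1 (0.439) were called lower. Syntenin (Sdcbp), which binds the end of the tail through its PDZ domains, had 246 counts in the P180-GFPbio library and 577 in the GFPbio library (0.596, 0.511 to 0.693). Gipc1, another PDZ protein, had 529 counts in the P180-GFPbio library and 247 in the GFPbio library (2.99, 2.57 to 3.49), and the scaffold kinase Cask had 118 in the P180-GFPbio library and 71 in the GFPbio library (2.32, 1.72 to 3.16). Src, a kinase of the syndecan signalling pathway, was lower at 0.428 (0.398 to 0.459).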
